A study of Mus musculus with 13 samples.

Results

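In the murine hepatoma line Hepa 1-6, 271 PolIII peaks were called after depletion of KAP1 at places where the control list held none. They were selected by position alone: a peak of the Kap1 KD list was kept when it shared 0 bp with every PolIII peak of the control list. That left 271 of 431 Kap1 KD peaks (62.9%), of which 197 lay outside chromosome 15 and 74 on it. The other 160 peaks, called shared below, overlapped a control peak, and 156 of them lay outside chromosome 15. Since the PolIII calls of both conditions chose the members, their number, score and width are given as a description with no test.

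Both PolIII libraries came from cells fixed 5 days after transduction (the labels also say transfection with a plasmid), one with a hairpin against KAP1 (Kap1 KD) and one with a control hairpin, which the methods of the study give as an empty vector followed by puromycin selection. PolII was profiled in the same 2 conditions, and KAP1, H3K9me3, H3K27ac and H3K4me1 in cells under standard culture. ChIP-seq sequences the DNA pulled down by an antibody, and a peak is a stretch with more reads than its surroundings. Each group held 1 library and the files hold no read counts, so no value has a replicate error, the depth behind each list is unknown, and peaks are not replicates of a condition.

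RNA polymerase III makes short RNAs, chiefly transfer RNAs (tRNAs), the 5S ribosomal RNA, U6, 7SK, the vault RNAs and the RNA of RNase MRP. Most of its genes carry their promoter inside the transcribed part: in tRNA genes an A box and, further on, a B box, both bound by the factor TFIIIC. KAP1, the product of Trim28, is a corepressor brought to DNA by zinc finger proteins, and at many transposable elements it leads to the silencing mark H3K9me3, whereas H3K27ac and H3K4me1 mark active regulatory chromatin.

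The tRNA sequences are shown first, since the rule did not use sequence and tRNA genes are the main PolIII targets. A site was called tRNA-like when a 5-pair T arm enclosed GTTCNANNC and was followed by 7 bases that paired fully with the start of a stretch of 70 to 90 bases. Of the members, 1 of 271 held such a site, against 92 of 156 shared peaks (59.0%, 95% Wilson interval 51.1 to 66.4%) outside chromosome 15 and 0.0127% of all 1 kb windows of the assembly. The one member was the highest-scoring of all, and it held 2 sites on opposite strands. Of the 156 shared peaks, 36 also held 2 or more sites. With 6 of the 7 end pairs required, 2 members had a site. No member had the planned pair of motifs, an A box followed within 80 bp by a strict B box, so the sites shown were chosen after their values were seen. The capitals mark the B box match GTTCNANNC. All sequences are from assembly NCBIM37 (mm9), written 5′ to 3′ on the strand named, with the 3 highest-scoring shared peaks that held a site for comparison.
Member at chr1:167571765-167571835, plus strand: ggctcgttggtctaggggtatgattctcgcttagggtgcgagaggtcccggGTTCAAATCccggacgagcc
Member at chr1:167572403-167572473, minus strand: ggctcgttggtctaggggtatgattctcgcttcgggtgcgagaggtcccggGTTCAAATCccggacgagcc
Shared at chr11:68850979-68851059, plus strand: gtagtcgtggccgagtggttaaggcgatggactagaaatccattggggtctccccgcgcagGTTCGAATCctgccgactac
Shared at chr5:125884621-125884691, minus strand: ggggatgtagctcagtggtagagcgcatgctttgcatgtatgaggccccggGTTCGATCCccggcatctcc
Shared at chr19:12080529-12080600, plus strand: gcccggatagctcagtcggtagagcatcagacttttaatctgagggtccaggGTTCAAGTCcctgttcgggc

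The 2 sites of the chromosome 1 member were 71 bases long and differed at 1 position. Among shared peaks, a top site identical to either copy was counted 7 times. RefSeq (assembly GRCm38.p6, used for names and neighbours only) places the tRNA genes n-TPagg2 and n-TPcgg2, whose names give proline and the anticodons AGG and CGG, between Mpzl1 and Rcsd1, the genes that flank this member. GENCODE M1, the annotation of the files' build, lists no gene at this peak.

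Counted by letters alone, the strict B box GTTCGANTC, searched on both strands within 500 bp of the peak centre, was in 0 of 271 members, which allows a share of up to 1.40% (upper bound of the 95% Wilson interval). It was in 45 of 156 shared peaks (28.8%) and in 0.444% of all 1 kb windows of the assembly. The looser GTTCNANNC was in 75 of the 197 members outside chromosome 15 (38.1%) and 32 of 74 on it (43.2%), close to the 34.7% of all windows, against 124 of 156 shared peaks (79.5%). TGGCNNAGT, a form of the A box, was in 39 of 197 (19.8%) and 11 of 74 members (14.9%), against 45 of 156 shared peaks (28.8%) and 16.3% of windows. None of the 271 members overlapped an annotated PolIII gene, whereas 11 of 160 shared peaks (6.88%) did, the only ones among all 431 peaks. Those 11 covered U6 at 4 places, 7SK at 3, and U6atac, a Y RNA, the RNA of RNase MRP and a vault RNA at 1 each. None was a tRNA gene, although 93 of the 160 shared peaks held a tRNA-like site, so this count does not speak to tRNA genes.

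Most members were wide and had low scores for their width. The authors' score, a whole number whose meaning was not stated, had a median of 17 in the members outside chromosome 15 (lowest 8, highest 195), 22 on chromosome 15 (12 to 82) and 40 in the shared peaks outside it (11 to 469). The members were wider, with median widths of 1437 and 2734 bp against 720 bp in the shared peaks. Score rose almost in step with width among members (Spearman's rho 0.914 outside chromosome 15 and 0.983 on it, across peaks of 1 library, given without a p), and less closely among shared peaks (0.595). Per kb of width, the median score was 12.0 in the members outside chromosome 15, 8.41 on it, and 55.4 in the shared peaks. A score over 50 was reached by 2 of 197 members outside chromosome 15, by 3 of 74 on it and by 65 of 156 shared peaks.

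**Figure D1:**
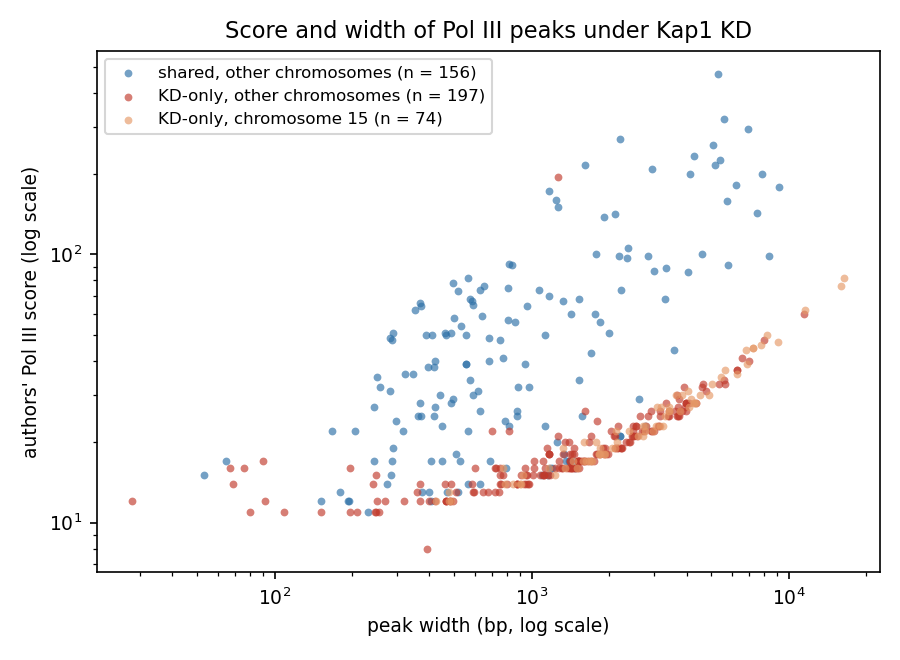
Width in bp (x, log scale) and the authors' score (y, log scale) of each PolIII peak of the Kap1 KD library, 1 point a peak, with the 4 shared peaks of chromosome 15 left out. Members of both kinds lie along a narrow lower edge on which score follows width, the shared peaks spread above it, and the member with a score of 195 at 1266 bp lies among the shared peaks.

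KAP1 itself was much less frequent at members than at shared peaks. Outside chromosome 15, a KAP1 peak overlapped 8 of 197 members (4.06%, 95% Wilson interval 2.07 to 7.81%) and 144 of 156 shared peaks (92.3%, 87.0 to 95.6%), where all 431 Kap1 KD peaks stood at 36.4%. Of windows as wide as the median member (1437 bp), 1.22% met a KAP1 peak. Windows of 1 width are a rough guide, since these members ran from 28 to 11477 bp and a wider peak meets a list more readily. H3K9me3 went the other way: it overlapped 68 members (34.5%, 28.2 to 41.4%) against 6 shared peaks (3.85%), with 22.7% over all 431 peaks and 4.07% of windows. In these 68 members the mark covered a median of 39.6% of the peak. At least 50% was covered in 28 members (14.2% of the 197), against 2 of 156 shared peaks (1.28%). Of the 68 members with H3K9me3, 64 had no KAP1 peak, but few members had one at all (4.06%). H3K9me3 without KAP1 was thus at 64 of 197 members (32.5%), against 5 of 156 shared peaks (3.21%).

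The active marks were less frequent on members than on shared peaks. H3K27ac overlapped 10 of the 197 members (5.08%) against 85 of 156 shared peaks (54.5%), with 24.1% over all 431 and 3.80% of windows. H3K4me1 overlapped 27 members (13.7%) against 74 shared peaks (47.4%), with 32.3% over all 431 and 5.17% of windows. PolII of the control was at 5 members (2.54%) and 25 shared peaks (16.0%), with 7.66% over all 431 and 0.538% of windows. PolII under Kap1 KD was at 12 members (6.09%) and 50 shared peaks (32.1%), with 15.8% over all 431 and 1.24% of windows. None of KAP1, H3K9me3, H3K27ac and H3K4me1 overlapped 110 of the 197 members (55.8%, 48.9 to 62.6%), against 6 of 156 shared peaks (3.85%), 33.6% of all 431 peaks and 89.97% of windows. Members thus met at least 1 of the 4 lists less often than shared peaks and more often than windows, the latter not tested. Single lists differed from this. H3K9me3 was more frequent on members than on shared peaks, and the members' interval for H3K27ac (2.78 to 9.09%) included the 3.80% of windows.

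By Fisher's exact test over peaks, two-sided and adjusted by the Benjamini-Hochberg method over the 6 lists, all 6 differences passed 0.05. By this exact test the odds ratio, members against shared peaks, was 0.00353 for KAP1 (95% interval 0.00141 to 0.00886, adjusted p = 3.18e-72), 13.2 for H3K9me3 (5.54 to 31.4, adjusted p = 2.01e-13), 0.0447 for H3K27ac (0.0220 to 0.0909, adjusted p = 2.1e-26) and 0.176 for H3K4me1 (0.105 to 0.294, adjusted p = 6.89e-12). For PolII the odds ratio was 0.137 in the control (Fisher's exact test, adjusted p = 8.8e-06) and 0.138 under Kap1 KD (adjusted p = 1.71e-10). These p-values describe positions in single libraries, not the conditions, and neighbouring or copied peaks are not independent. Matched by quintile of the PolIII score, the odds ratio was 6.50 for H3K9me3, 0.411 for H3K4me1, 0.0900 for H3K27ac and 0.00903 for KAP1, all nearer to 1 by over 1.5 times. With the list covering at least 0.5 of the peak, it was 0.141 for H3K27ac. At members with no control number missing it was 7.43 for H3K9me3, 0.0971 for H3K27ac and 0.228 for PolII of the control. The other 3 lists there had 0.00362 (KAP1), 0.158 (H3K4me1) and 0.0922 (PolII under Kap1 KD).

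**Figure D2:**
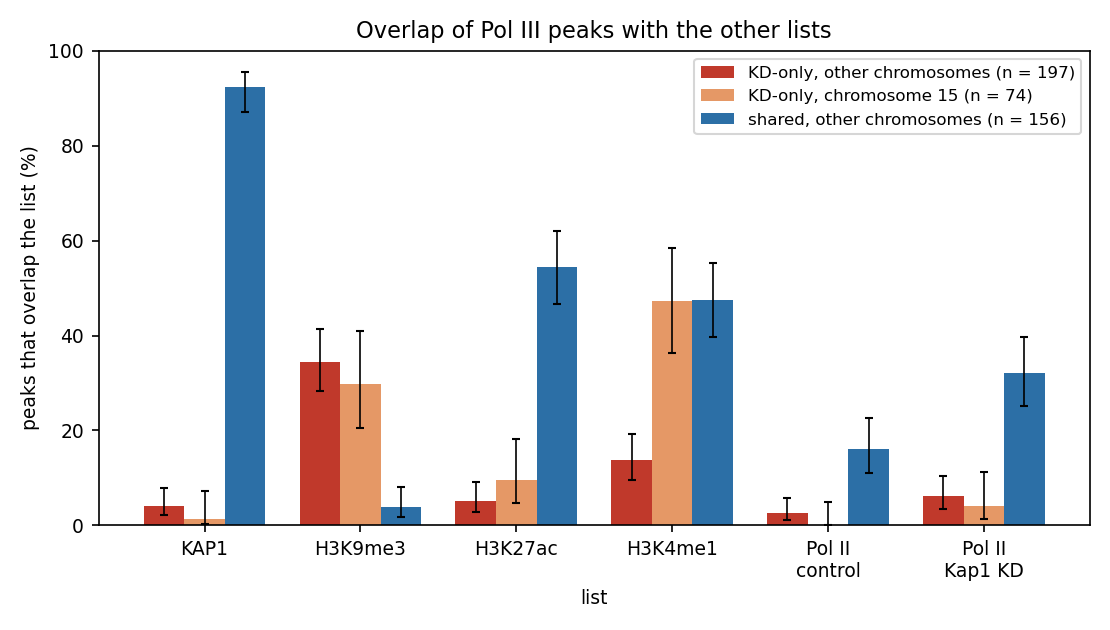
Share of PolIII peaks (y, %) that overlap each of 6 lists (x), for members outside chromosome 15 (n = 197), members on chromosome 15 (n = 74) and shared peaks outside chromosome 15 (n = 156), with 95% Wilson intervals that cover counting error over peaks only. KAP1 is at 92.3% of shared peaks and 4.06% of members outside chromosome 15, and H3K9me3 at 3.85% and 34.5%.

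Of the 8 members with KAP1 outside chromosome 15, 2 also carried an active mark. The higher-scoring of them, at chr1:167571526-167572791, between genes, had a score of 195, rank 13 of all 431 peaks, and 154 per kb. A KAP1 peak with a score of 3100 and an H3K27ac region covered it whole, and H3K4me1 covered 610 bp. No PolII peak overlapped it, and the nearest control PolIII peak was 46365 bp away.

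Of the 6 members with KAP1 and no active mark outside chromosome 15, 4 lay in H3K9me3, among them the 3 with the highest scores. The other 2, on chromosomes 16 (score 16) and 6 (score 14), shared 0 bp with the mark. At chr13:66767557-66770394 (score 25) H3K9me3 covered 79.0% of the peak and KAP1 769 bp, and PolII under Kap1 KD covered 209 bp. At chr19:56255331-56257803 (score 23) H3K9me3 covered the whole peak. At chr8:18932244-18934188 (score 18), over an exon of Xkr5 and an annotated SNORA70, a small nucleolar RNA, KAP1 covered 949 bp and H3K9me3 594 bp.

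Outside chromosome 15, the highest-scoring member in H3K9me3 without KAP1 was chr7:66691717-66703193, with a score of 60 over 11477 bp (5.23 per kb). It spanned 6 annotated copies of SNORD115, a box C/D small nucleolar RNA of an imprinted array, spaced 1869 to 1872 bp apart and in only 2 different sequences. H3K9me3 covered 38.5% of it, and 99.5% of its 31-base words occur in more than 1 place in the assembly. Both sequences are shown, as a case of a member that holds repeated units, with TGATGA (part of the C box) and CTGA (the D box) in capitals.
SNORD115 at chr7:66693389-66693467, minus strand: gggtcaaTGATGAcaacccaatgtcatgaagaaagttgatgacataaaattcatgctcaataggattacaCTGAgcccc
SNORD115 at chr7:66695261-66695339, minus strand: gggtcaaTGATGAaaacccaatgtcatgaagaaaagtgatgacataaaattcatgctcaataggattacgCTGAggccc

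The next 2 members by score in H3K9me3 without KAP1 there also carried an active mark. At chr5:152125404-152133418 (score 48) H3K9me3 covered 33.1%, H3K4me1 1511 bp and H3K27ac 643 bp. At chr4:61358786-61365348 (score 41), within an intron of Mup-ps15, a pseudogene of the major urinary protein family, H3K9me3 covered 77.4% and H3K4me1 205 bp. These 2 were also the highest-scoring members outside chromosome 15 with an active mark and no KAP1, followed by chr10:22046523-22050450 (score 32), where H3K9me3 covered 78.8% and H3K4me1 2485 bp. Between 65.2% and 80.6% of the 31-base words of these 3 members were repeated elsewhere.

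Among members outside chromosome 15 with none of the 4 lists, the highest scores were 34 at chr11:75337161-75342733, over an exon of Scarf1 (a scavenger receptor gene), 33 at chr3:88619172-88624823, in an intron of Syt11 (a synaptotagmin gene), and 33 at chr11:38359769-38365140, which lay 1312988 bp from the nearest protein-coding start. All 3 were over 5 kb wide with 5.84 to 6.14 points of score per kb. They differed in sequence. Within 500 bp of the centre GTTCNANNC occurred 2 times at Scarf1, 3 times at Syt11 and 0 times in the third, and 10.6%, 75.01% and 2.27% of their words were repeated. The central 100 bases of the third are shown as an example of single-copy sequence without the motif.
Member at chr11:38362405-38362504, plus strand: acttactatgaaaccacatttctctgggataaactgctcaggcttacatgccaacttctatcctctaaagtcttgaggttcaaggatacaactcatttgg

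Many of the members outside chromosome 15 held repeated sequence. For each peak, every 31-base word was looked up in the whole assembly, and the share found in more than 1 place was taken. The median share was 35.4% in these members (quartiles 5.58 and 95.6%), 10.7% in shared peaks and 3.09% in 1 kb windows placed every 2 Mb. At least 50% of the words were repeated in 94 of 197 members (47.7%), 12 of 156 shared peaks (7.69%) and 11.0% of the windows. H3K9me3 overlapped 50 of those 94 members (53.2%) and 18 of the other 103 (17.5%). KAP1 overlapped 3 of the 94 and 5 of the 103. How reads with several matches were placed was not stated, and its part in these calls was not tested.

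**Figure D3:**
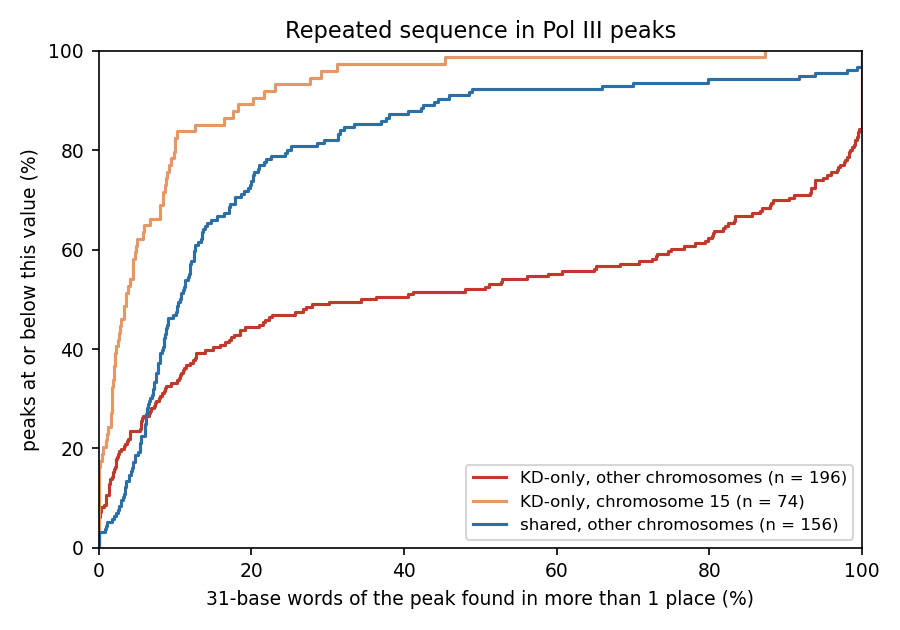
Cumulative share of peaks (y, %) by the percent of their 31-base words found in more than 1 place of the assembly (x), for 196 members outside chromosome 15 (the 28 bp member is too short), 74 members on chromosome 15 and 156 shared peaks. The members outside chromosome 15 reach a median of 35.4%, against 3.56% on chromosome 15 and 10.7% for shared peaks.

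Some members were copies of each other. Each of 17 members outside chromosome 15 matched another member with at least 95% identity over 0.8 of both, and they formed 7 families. In 5 of these the copies had the same width and the same score. Cphx, a homeobox gene, and its neighbours Gm2104 and Gm2135 on chromosome 14 each held a member of 3973 bp with a score of 28. On chromosome X, 3 members of 1165 bp with a score of 18 lay at Usp9x, a deubiquitinase gene, Gm15027 and Gm14536. On chromosome 10, 3 members of 464 bp with a score of 12 lay near the starts of Gm4303, Gm4305 and Gm4307. Obox1, Obox2 and Obox3, homeobox genes on chromosome 7, were covered by 2 members with scores of 25 and 26. In the 5 families with equal widths and scores the copies were 100% identical, so reads that fall within them cannot be assigned to 1 copy.

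In all, 7 members were under 100 bp, with scores of 11 to 17. At least 50% of the 31-base words were repeated in 5 of them, 1 of 28 bp was shorter than a word, and 1 of 80 bp in Sap130 held no repeated word. One on chromosome 9, in Alkbh8, consisted of a single dinucleotide repeat and had the highest score per kb of any member, 429, at a score of 12. One on chromosome 14, in Cadps, was a tandem repeat of a short unit, and one on chromosome 16 lay whole inside a KAP1 peak.
Member at chr9:3364592-3364619, plus strand: tatatatatatatatatatatatatata
Member at chr14:13428398-13428466, plus strand: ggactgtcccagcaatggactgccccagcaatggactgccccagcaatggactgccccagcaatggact
Member at chr16:56054293-56054359, plus strand: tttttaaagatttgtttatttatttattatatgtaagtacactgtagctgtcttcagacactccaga

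Outside chromosome 15, 7 of 197 members (3.55%, 95% Wilson interval 1.73 to 7.15%) were centred within 1 kb of a protein-coding start, against 36 of 156 shared peaks (23.1%), 9.98% of all 431 peaks and 3.02% of the assembly's positions. Of the other members, 108 lay between genes (54.8% of the 197), 73 in introns (37.1%) and 9 in exons (4.57%). For the 156 shared peaks these shares were 61.5%, 10.9% and 4.49%. The 7 starts belonged to Mup17 (a major urinary protein), Olfr823 (an odorant receptor), Scd3 (a fatty acid desaturase), 9930023K05Rik, Gm4303, Gm4305 and Gm4307. PolII under Kap1 KD overlapped 2 of them, Mup17 by 148 bp and Olfr823 by 221 bp, and both were in H3K9me3. Of all 12 members with a Kap1 KD PolII peak outside chromosome 15, 9 were in H3K9me3 and 8 had at least 50% repeated words. Over all 197 members these shares were 34.5% and 47.7%. Of the same 12, 10 overlapped no control PolII peak. Among all Kap1 KD PolII peaks outside chromosome 15, 65.3% overlapped no control PolII peak.

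Chromosome 15 held the most members. It makes up 3.92% of the assembly's length and held 74 of 271 members (27.3%), or 0.715 per Mb, against 0.194 on chromosome 6, the next densest, and 0.0203 on chromosome 16, the sparsest. The control PolIII list held 32 peaks there, 1.15% of all its peaks but 11.0% of the 292 outside chromosomes 1 to 4. Other lists were dense there too, with 12.7% of H3K4me1 regions, 10.7% of H3K9me3 regions, 6.98% of KAP1 peaks and 11.6% of Kap1 KD PolII peaks on it. A higher copy number of the chromosome and more PolIII binding cannot be told apart from these lists.

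The chromosome 15 members lay mostly in single-copy sequence, with a median of 3.56% repeated words, and 1 of 74 reached 50%. H3K4me1 overlapped 35 of them (47.3%, 95% Wilson interval 36.3 to 58.5%), where 26.2% of windows of their median width (2733 bp) on this chromosome met the mark. These members ran from 424 to 16413 bp, and a wider peak meets a list more readily. Windows of 1 width are therefore a rough guide here and below, and shares at matched width were not tested. H3K9me3 overlapped 22 (29.7%, against 18.8% of windows), H3K27ac 7 (9.46%, against 10.4%), KAP1 1 (1.35%, against 3.70%), PolII of the control 0 (against 2.06%) and PolII under Kap1 KD 3 (4.05%, against 5.58%). None of the 74 was centred within 1 kb of a protein-coding start. The 95% Wilson interval reached 4.935%, which includes the 3.02% of positions outside chromosome 15 that lie so near.

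The highest-scoring chromosome 15 member, chr15:62537406-62553818 (score 82, 16413 bp, 5.00 per kb), held 7738 bp of H3K4me1 and 2094 bp of H3K27ac. It was followed by chr15:90719473-90735418 (score 76), with H3K9me3 over 37.1% and 468 bp of H3K4me1. The next, chr15:66122805-66134319 (score 62), held 4990 bp of H3K4me1, 1257 bp of H3K27ac and 735 bp of H3K9me3. The single member with KAP1, chr15:37084799-37091630 (score 44), shared 229 bp with a KAP1 peak and 3142 bp with H3K4me1. In an intron of Kcnq3, a potassium channel gene, chr15:66021902-66030954 (score 47) was covered to 94.0% by H3K9me3 and shared 1147 bp with H3K4me1.

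**Figure D4:**
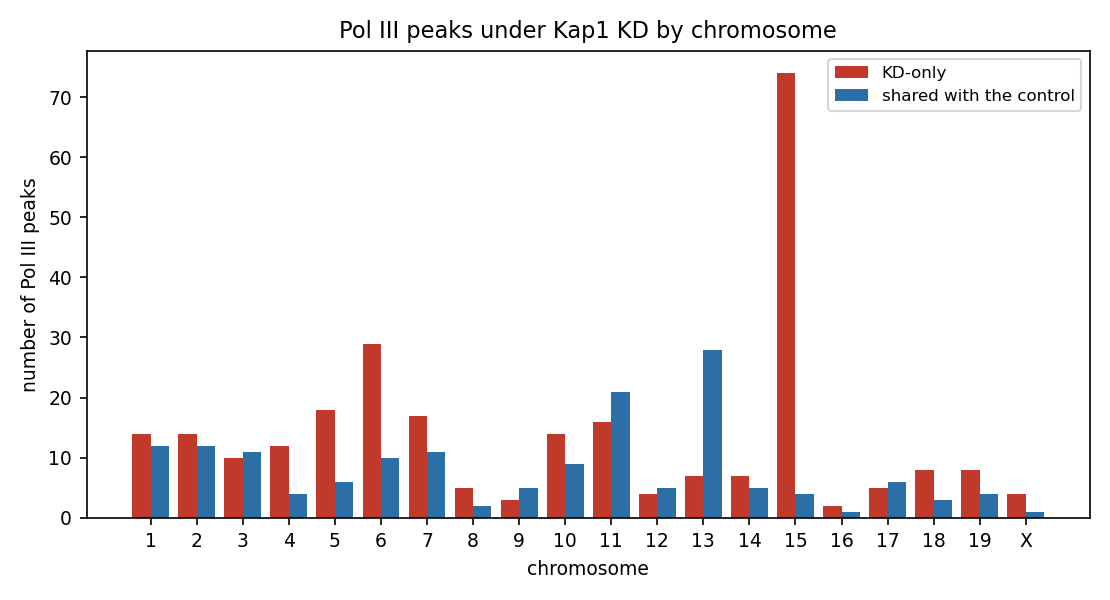
Number of Kap1 KD PolIII peaks (y) on each chromosome (x), members in red and peaks shared with the control in blue. Chromosome 15 holds 74 members and 4 shared peaks, chromosome 6 holds 29 members, and chromosome 13 holds 28 shared peaks.

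Outside chromosome 15 the members were spread unevenly. Chromosome 6 held 29, of which 22 lay past 110 Mb, among them members in Cacna2d4 (a calcium channel subunit), Vwf (von Willebrand factor), Wnt5b (a Wnt ligand) and Mug1 (murinoglobulin), named after their values were seen. On chromosomes 1 to 4, where 2480 of the 2772 control peaks lay, 50 of the 271 members were found. From chromosome 1 to 5 the control list held 1343, 739, 311, 87 and 27 peaks. The Kap1 KD list did not fall so steeply, with 14, 14, 10, 12 and 18 members and 12, 12, 11, 4 and 6 shared peaks. Outside chromosomes 1 to 4 the control list held 292 peaks in all, so most members lay where it was sparse. The reason was not tested.

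How firmly a member lacks a control peak depended on the control list. The nearest members to a control peak were 678 bp away at chr3:134553204-134555691, 900 bp at chr1:156812377-156813887 and 1664 bp at chr1:107989140-107992069, and the median distance was 1.13 Mb. Just beyond the rule, the 3 shared peaks with the smallest overlap shared 14, 21 and 28 bp with a control peak. The control peaks are numbered in genome order, and 1212 of 3984 numbers (30.4%) are missing from the list, so calls had been removed from it. The Kap1 KD list was thinned as well, with 527 of 958 numbers (55.0%) missing. Of the 271 members, 206 (76.0%) lay in a gap of the list where at least 1 number was missing, including the chromosome 1 tRNA member with 3, and a removed control call could lie at any of them. The same count, taken at the start of each peak, was 38 of 160 shared peaks (23.8%). In the other 65, no number was missing. Of the 48 such members outside chromosome 15, KAP1 was at 2, H3K9me3 at 11 (22.9%), H3K27ac at 5 (10.4%) and H3K4me1 at 6 (12.5%), 32 (66.7%) had none of these lists, and 15 had at least 50% repeated words.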

How the data were processed

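Per the labels and the study's methods, the authors mapped reads with Bowtie to mm9. MACS, with total input as control, gave the KAP1 and PolII peaks, and ChIP-Part the histone regions. The PolIII caller is not given in the sources used here. The deposited lists hold positions and, for KAP1, PolII and PolIII, the authors' score, which was used to rank and describe peaks. Of 13 samples, 8 have a list, and the 5 inputs were not analysed here.

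Peaks overlapped when they shared at least 1 bp. Positions count from 1 and genes are from GENCODE M1. Overlaps were compared by Fisher's exact test (SciPy 1.17.1), with Mantel-Haenszel odds ratios by score quintile (statsmodels 0.14.6). Copies were found with blastn 2.17.0. Motifs were searched on both strands. The overlap, Fisher and tRNA-like steps were tested on simulated data. The genome copy used carries no repeat masking, so the planned share of masked bases was left out. Named sites were the 3 highest-scoring members of each class of marks, ties in genome order, and 1 of them is not reported here. The members, lists and tests were chosen with earlier results of these data known, and the repeated-word and copy counts after seeing them.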

Additional observations from a re-analysis of the deposited data

How the results depend on the processing

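For the 6 overlaps, all 54 results under the alternatives kept their direction and stayed past 0.05, here without adjustment over the 6 lists. The weakest was PolII of the control at members with no control number missing (Fisher's exact test, unadjusted p = 0.0484). The odds ratio ranged from 0.000585 to 0.00903 for KAP1, 6.50 to 321 for H3K9me3, 0.0260 to 0.141 for H3K27ac, 0.154 to 0.411 for H3K4me1, 0.0631 to 0.228 for PolII of the control and 0.0659 to 0.346 for PolII under Kap1 KD. The 321 came from peaks above the median score, where 0.5 was added to each cell because no shared peak had the mark. Members numbered 271, but 84 with a score above the list's median and 65 with no control number missing. The B box share was 0% and became 38.1% with GTTCNANNC. Members with a tRNA-like site went from 1 to 2 with 6 of 7 pairs. Leaving out members with a like copy, and the last of these alternatives, were chosen after seeing the data. No paired analysis was possible because each group holds 1 library. No replicate could be left out for the same reason, and unknown depth limits any reading of a missing peak.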
